A study of Mus musculus with 6 samples.

Results

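The genes described here were 50 protein-coding genes of Wnt signaling in mouse lung tumors, chosen by symbol: 17 Wnt ligands, 10 frizzled receptors, the coreceptors Lrp5 and Lrp6, 8 secreted antagonists of the Dkk, Sfrp and Wif1 families, 4 R-spondins, their receptors Lgr4, Lgr5 and Lgr6, the scaffolds Axin1 and Axin2, and the transcription factors Tcf7, Tcf7l1, Tcf7l2 and Lef1. They were 50 of the 31130 genes in the count tables, of which 18531 were protein-coding. RNA was sequenced from 3 tumors of the lung cancer model (LC) and 3 tumors of the model in which lung cancer was combined with interstitial pneumonia (IP + LC). By the labels all tumors were of Lewis lung carcinoma (LLC), a line of C57BL/6 origin, and the genotype was wild-type. The mice were females aged 6 to 8 weeks, and the strain, which the labels do not name, was C57BL/6 where the study describes hosts of LLC. The LLC cells carried enhanced green fluorescent protein and were placed in the left lung by injection on day 14. The IP + LC mice had been given bleomycin, an antitumor drug used to induce lung fibrosis in mice, by oropharyngeal aspiration at 2.0 mg/kg on day 0, and the LC mice had been given saline in the study's scheme. Tumor tissue was collected from both groups on day 21. The tissue was bulk tissue of a single transplanted line together with host lung, so that in what follows fewer cells of a type and less RNA per cell cannot be told apart.

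Wnt proteins are lipid-modified ligands that bind a frizzled receptor together with Lrp5 or Lrp6. Without ligand, a destruction complex built on Axin marks β-catenin for degradation; with ligand, β-catenin accumulates and acts with TCF and LEF factors on target genes. Secreted antagonists bind the ligands or the receptors, R-spondins strengthen the signal through Lgr receptors, and in the lung the pathway is known from development, from the upkeep of alveolar epithelium and from fibrosis.

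The values are counts of unique molecular identifiers (UMIs), random tags read at the 3′ end of each transcript, so that each counted tag stands for 1 captured molecule. A tumor had between 592733 and 1631066 UMIs, with the lowest total in LC replicate 1, where 3 UMIs were worth 5.17 CPM, the scaled count in 1000000 counted molecules, against 1.75 to 2.54 in the other tumors. The 50 Wnt genes took 272 to 950 UMIs per tumor, or 0.0459% to 0.0692% of the total. LC replicate 1 stood apart: across the tested genes its log2(CPM + 1) values correlated with those of LC replicates 2 and 3 at r = 0.810 and 0.766, whereas these replicates correlated at 0.955 with each other and the IP + LC tumors at 0.960 to 0.967. Each p-value below covers only the spread between 3 tumors per group.

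Several lists of markers of other cell types differed between the groups. By the test used for the Wnt genes, 16.8% of all tested genes rose and 19.6% fell. The summed level of 11 endothelial markers, led by Cldn5, was 1521 to 2714 CPM in LC and 489 to 648 CPM in IP + LC, and all 11 were lower by the test used for the Wnt genes. Of the type 1 alveolar markers, led by Ager, 9 of 10 fell (3928 to 6699 CPM against 1441 to 1927 CPM), and of the type 2 alveolar markers, led by Sftpc, 10 of 11 fell (38622 to 48392 CPM against 7329 to 12799 CPM). All 10 airway markers, led by Scgb1a1, fell from 54446 to 65267 CPM to 3847 to 8180 CPM. All 8 smooth muscle markers, led by Acta2, fell from 796 to 1243 CPM to 248 to 344 CPM, and 4 of 7 pericyte markers, led by Pdgfrb, fell from 170 to 212 CPM to 64.5 to 90.0 CPM. Among 12 tested of 13 fibroblast markers, led by Inmt, 8 fell and 3 rose (3976 to 5497 CPM against 2601 to 2787 CPM). The 5 tested of 8 mesothelial markers, led by Krt19, fell from 312 to 501 CPM to 111 to 170 CPM, and the 6 tested of 8 cardiac markers, led by Actc1, fell from 956 to 2066 CPM to 156 to 396 CPM. Of 12 macrophage markers, led by Spp1, 5 rose and 1 fell (1861 to 6425 CPM against 5076 to 6143 CPM), with the highest sum in LC replicate 1. Of 11 proliferation genes, led by Top2a, 8 rose, with sums of 973 CPM in LC replicate 1, 149 and 157 CPM in the other LC tumors and 1337 to 1622 CPM in IP + LC. No listed marker was at 0 in all tumors, and the lists held no marker of the LLC line. The part of these markers in the results on Wnt genes was not tested.

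Most Wnt genes that changed were lower in IP + LC, and the largest change among those tested was a rise of the antagonist Sfrp1. Of the 50 genes, 22 had enough UMIs to be tested with edgeR's quasi-likelihood test, a test of counts over all genes with Benjamini-Hochberg adjustment, and 11 of these 22 had an adjusted p below 0.1, the limit used throughout. Over all 11240 tested genes the share was 36.4%. Sfrp1 and Axin1 rose (16.8% of all tested genes rose), and Fzd2, Fzd4, Fzd6, Fzd7, Dkk3, Rspo1, Lgr6, Axin2 and Tcf7l1 fell (19.6% of all tested genes fell). A gene was tested if at least 3 tumors, whatever their group, reached 7.41 unscaled CPM. A gene reaching it in all 3 LC but not all 3 IP + LC tumors is said to pass through LC alone. The reverse is called IP + LC alone. Fzd2, Rspo1, Lgr6 and Axin2 passed through LC alone, with 2, 2, 0 and 1 IP + LC tumors also reaching that level. A call of such a gene as lower is therefore not independent of the filter: of all tested genes, 749 passed through LC alone, of which 628 fell and none rose. Without a filter these 4 genes were still called lower, with adjusted p-values from edgeR of 0.00337, 0.0138, 0.0544 and 0.0661. In the same 2 genes every IP + LC tumor lay above every LC tumor, and in the same 9 every IP + LC tumor lay below, as was the case for 21.6% and 21.5% of all tested genes. For the 22 tested Wnt genes the log2 fold change had a median of -0.97, with 6 above and 16 below 0, and that of all tested genes was 0.018. Without LC replicate 1, 15 Wnt genes were called, among them the same 11 with Fzd3, Lef1, Wnt4 and Wnt5a added, all lower, while 57.0% of all tested genes were called.

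**Figure D1:**
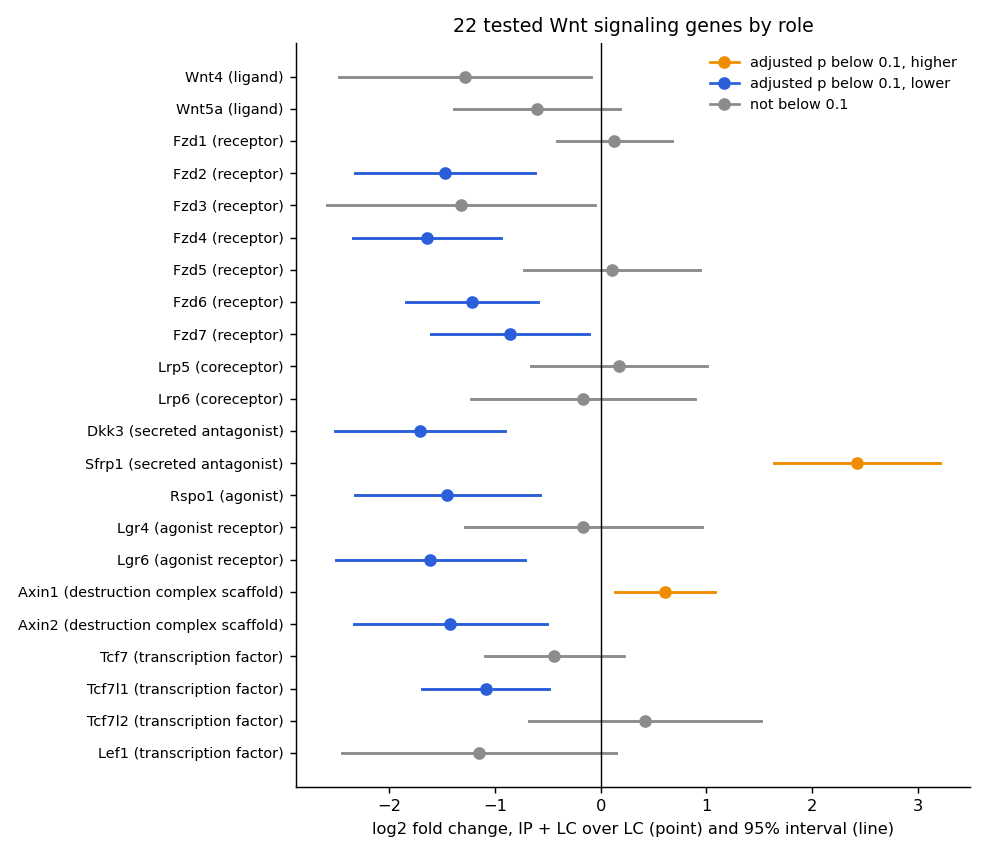
Log2 fold change of the 22 tested Wnt genes, IP + LC over LC, as points with 95% intervals as lines, grouped by role. Orange marks the 2 genes that rose, Sfrp1 and Axin1, blue the 9 that fell and grey the 11 with an adjusted p of 0.1 or more.

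The Wnt ligands were scarce in both groups. Only Wnt4 and Wnt5a passed the filter on low counts, and neither passed the test. Wnt4 was at 14.7 ± 8.36 CPM in LC and 6.35 ± 3.63 CPM in IP + LC (SD, n = 3 in each group here and below), a log2 fold change of -1.28 with a 95% interval from -2.47 to -0.096 (edgeR adjusted p = 0.101). Wnt5a, a ligand known for signaling that does not pass through β-catenin, was at 15.7 ± 5.04 and 10.9 ± 3.19 CPM (log2 fold change -0.60, edgeR adjusted p = 0.232). Without LC replicate 1 both passed the test, Wnt4 at -1.51 (edgeR adjusted p = 0.0109) and Wnt5a at -0.75 (edgeR adjusted p = 0.0743). The other 15 ligands had at most 18 UMIs in any tumor. These are unscaled UMIs from groups of unequal depth, 3328873 in LC and 4312027 in IP + LC, which holds for all UMI totals per group given here. Over the 3 tumors of a group, Wnt2, a ligand of lung mesenchyme, had 32 UMIs in LC and 13 in IP + LC, Wnt7a had 27 and 12, and Wnt11 had 24 and 7. Wnt7b had 13 and 13 UMIs, a mean of 3.50 and 2.81 CPM after scaling, and Wnt9a had 15 and 13, a mean of 4.94 and 3.0 CPM. Wnt3a had 15 and 9, Wnt10b 14 and 5, Wnt5b 13 and 8 and Wnt10a 3 and 2. Wnt6 was the ligand with more UMIs in IP + LC by the largest margin, 9 against 1, spread over all 3 IP + LC tumors with 3, 4 and 2. Wnt2b, Wnt3, Wnt8b and Wnt16 had 1 or 2 UMIs per group, and Wnt8a had none in any tumor, which at this depth allows up to 3 UMIs per tumor. Summed over all 17 ligands the level was 65.4, 83.8 and 99.1 CPM in LC and 28.3, 42.0 and 45.7 CPM in IP + LC, so that the groups did not overlap. An exact permutation test of 3 against 3 tumors cannot give a two-sided p below 0.1, and these sums are therefore given without a test.

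The frizzled family, the receptors that bind the ligands, was lower in 4 of its 7 tested members, where 19.6% of all tested genes fell, and 1 of the 4, Fzd2, had passed the filter through LC alone. Fzd4, known as the receptor of norrin in blood vessels as well as of Wnt ligands, was the most abundant in LC. It was at 46.5, 93.2 and 67.8 CPM in the LC tumors and at 30.5, 18.1 and 19.6 CPM in the IP + LC tumors. Every IP + LC tumor lay below the lowest LC tumor, which was LC replicate 1. The difference was a 3.13-fold decrease (log2 fold change -1.64, SE 0.31, edgeR adjusted p = 0.00589). In IP + LC, Fzd1 had as many UMIs as Fzd4 in replicate 1 and more in replicates 2 and 3.

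Fzd2 was at 22.4, 18.0 and 34.7 CPM in LC and at 10.2, 5.84 and 11.6 CPM in IP + LC. The gap between the groups was narrow against the spread within LC, and the log2 fold change was -1.47 with an SE of 0.38 (edgeR adjusted p = 0.0204). Fzd6, a frizzled best known from planar cell polarity, was at 22.4, 29.0 and 28.8 CPM in LC and at 9.43, 11.1 and 14.5 CPM in IP + LC. Its values were close together within each group and apart between them (log2 fold change -1.22, SE 0.28, edgeR adjusted p = 0.0127). Fzd7 had the highest adjusted p of the 4, with 18.9, 17.2 and 12.7 CPM against 7.25, 7.59 and 11.6 CPM. The lowest LC tumor and the highest IP + LC tumor were 15 and 16 UMIs, so the call of Fzd7 (log2 fold change -0.86, SE 0.33, edgeR adjusted p = 0.0866) rested on few molecules and on the scaling by depth.

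Fzd1 and Fzd5 did not pass the test. Fzd1 was at 29.7 ± 6.38 CPM in LC and 33.6 ± 5.50 CPM in IP + LC (log2 fold change 0.13, 95% interval -0.41 to 0.67, edgeR adjusted p = 0.721). Fzd5 was at 7.23 ± 1.94 and 7.76 ± 1.13 CPM (log2 fold change 0.11, 95% interval -0.72 to 0.94). Fzd3 was at 15.6 ± 13.9 CPM in LC, with 31.4 CPM in LC replicate 3 alone, and at 6.64 ± 0.898 CPM in IP + LC (log2 fold change -1.32, edgeR adjusted p = 0.113). Its value was -0.34 without LC replicate 3 (edgeR adjusted p = 0.646) and -1.59 without LC replicate 1 (edgeR adjusted p = 0.00779). The other 3 receptors were rare: Fzd8 had 19 UMIs in LC and 9 in IP + LC, Fzd10 had 4 and 3, and Fzd9 had 2 and 0.

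The make-up of the frizzled family therefore differed between the groups in the counted molecules. Because each UMI marks 1 transcript end, counts of different genes were compared without division by length. Fzd1 made up 15.1% (exact 95% binomial interval 8.30 to 24.5), 15.2% and 14.9% of all frizzled UMIs in the LC tumors and 29.8%, 32.5% and 35.3% in the IP + LC tumors. Fzd4 made up 31.4%, 43.1% and 29.9% in LC and 29.8%, 19.4% and 17.3% in IP + LC, where replicate 1 was close to the lowest LC tumor. The ratio of Fzd1 to Fzd4 UMIs was 0.481, 0.353 and 0.5 in LC and 1, 1.68 and 2.04 in IP + LC. These intervals cover counting error only.

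The 250 bases before the RefSeq start of Fzd4 and Fzd7, which fell together, and of Axin2, a gene known to be switched on by Wnt signaling itself, are shown to set the receptors and the feedback gene side by side. They come from the GRCm38.p6 assembly and lie on the plus strand at chr7:89404116-89404365 for Fzd4, chr1:59481897-59482146 for Fzd7 and chr11:108920099-108920348 for Axin2.
Fzd4: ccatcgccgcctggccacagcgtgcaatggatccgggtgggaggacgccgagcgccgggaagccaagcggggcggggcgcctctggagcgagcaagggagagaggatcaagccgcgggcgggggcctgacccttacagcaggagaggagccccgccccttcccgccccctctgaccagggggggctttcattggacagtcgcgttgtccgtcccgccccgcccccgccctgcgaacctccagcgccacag
Fzd7: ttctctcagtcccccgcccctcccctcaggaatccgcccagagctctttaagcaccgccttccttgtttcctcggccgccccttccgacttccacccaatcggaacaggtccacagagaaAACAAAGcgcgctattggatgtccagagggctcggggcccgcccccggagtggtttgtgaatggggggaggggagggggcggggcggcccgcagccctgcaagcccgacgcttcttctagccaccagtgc
Axin2: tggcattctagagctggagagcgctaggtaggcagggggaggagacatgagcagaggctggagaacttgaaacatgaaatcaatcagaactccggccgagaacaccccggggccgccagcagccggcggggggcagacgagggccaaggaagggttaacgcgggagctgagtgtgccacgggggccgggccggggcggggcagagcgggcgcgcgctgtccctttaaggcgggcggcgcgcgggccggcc
Capitals mark the only match, on the minus strand, to the core bound by TCF and LEF factors, searched on both strands as CTTTG followed by AA, AT, TA or TT in the window from 250 bases before to 50 bases after the start. The match in Fzd7 lies 130 to 124 bases before the start, and the Fzd4 and Axin2 windows hold none of these letters. RefSeq windows were found for 32 of the 50 Wnt genes. Over all windows of these genes, 6 of 40 held a match, or 15%, close to the 16.9% of all 32851 windows of this length; by the nearest window alone it was 3 of 32 genes, and 1 of the 6 called genes with a window.

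**Figure D2:**
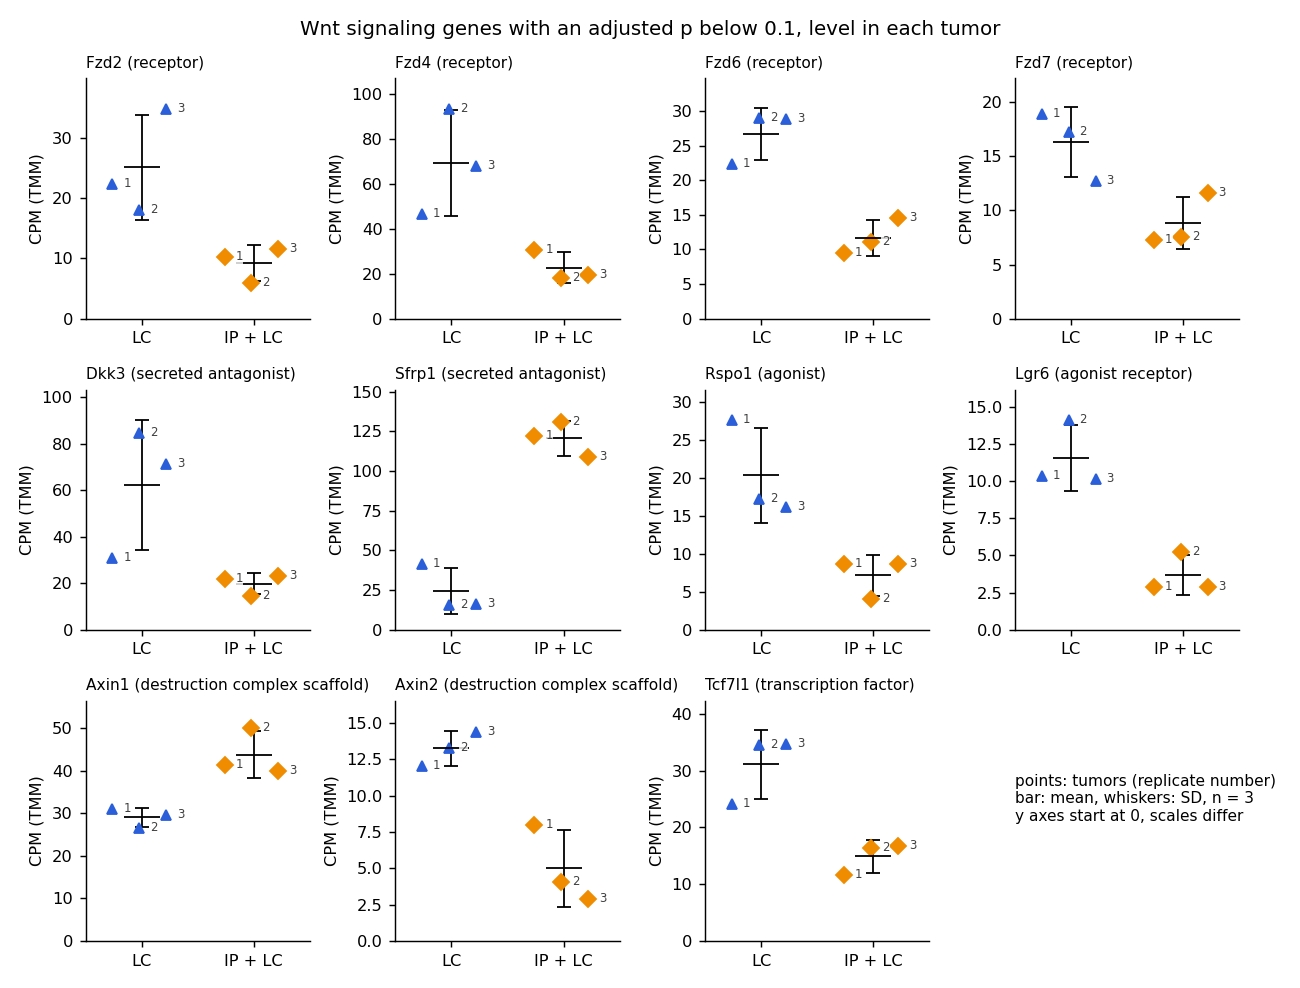
Level of the 11 Wnt genes with an adjusted p below 0.1 in each tumor, in CPM after TMM scaling, LC as blue triangles and IP + LC as orange diamonds, with the mean as a bar and the SD as whiskers (n = 3). Sfrp1 rose from 24.4 to 120 CPM and Axin1 from 29.1 to 43.8 CPM, and in the other 9 panels all IP + LC tumors lie below the LC tumors.

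Neither coreceptor passed the test. Lrp5 was at 10.9 ± 4.0 CPM in LC and 13.2 ± 3.83 CPM in IP + LC (log2 fold change 0.17, 95% interval -0.66 to 1.00). Lrp6 was at 13.8, 44.7 and 89.8 CPM in the LC tumors and at 50.8, 36.2 and 53.0 CPM in the IP + LC tumors, so that the LC tumors spread more widely than the groups differed (log2 fold change -0.17, 95% interval -1.22 to 0.89). Given the spread among the LC tumors, neither interval shows a difference or its absence.

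Among the secreted antagonists, Sfrp1 and Dkk3 changed in opposite directions. Sfrp1, a secreted protein with a frizzled-like domain that binds Wnt ligands, lies at chr8:23411502-23449632 on the plus strand (GRCm38). It had 24, 20 and 19 UMIs in the LC tumors and 168, 224 and 150 UMIs in the IP + LC tumors, or 41.3, 15.7 and 16.1 CPM against 122, 131 and 109 CPM. LC replicate 1 was the highest of the LC tumors and still lay far below the lowest IP + LC tumor. Sfrp1 was 5.37-fold higher in IP + LC (log2 fold change 2.42, SE 0.35, edgeR adjusted p = 0.00194), and this value was 2.93 without LC replicate 1 (edgeR adjusted p = 8.91e-08). It was the most abundant of the 50 Wnt genes in every IP + LC tumor.

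Dkk3, a secreted glycoprotein of the Dickkopf family whose action on Wnt receptors is less settled than that of its relatives, lies at chr7:112116017-112159057 on the minus strand. It was at 31.0, 84.6 and 71.2 CPM in the LC tumors and at 21.8, 14.6 and 23.2 CPM in the IP + LC tumors. All IP + LC tumors were below the LC tumors, with LC replicate 1 closest to them. Dkk3 was 3.27-fold lower (log2 fold change -1.71, SE 0.36, edgeR adjusted p = 0.00883), or -1.98 on the log2 scale without LC replicate 1.

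The other 6 antagonists did not pass the filter on low counts. Wif1, which binds Wnt ligands directly, had 4, 8 and 12 UMIs in LC and 1, 3 and 2 in IP + LC. Sfrp4 had 17 UMIs in LC and 8 in IP + LC, Sfrp2 had 11 and 3, and Sfrp5 had 10 and 3. Dkk2 had 5 and 7, and Dkk4 had 1 and 1. Sfrp1 thus made up 47.1%, 12.7% and 14.3% of the antagonist UMIs in the LC tumors and 82.8%, 86.2% and 77.3% in the IP + LC tumors, while Dkk3 made up 35.3%, 68.8% and 63.2% and then 14.8%, 9.62% and 16.5%. The ratio of Sfrp1 to Dkk3 UMIs was 1.33, 0.185 and 0.226 in LC and 5.6, 8.96 and 4.69 in IP + LC. In LC replicate 1, whose family total was 51 UMIs, Sfrp1 exceeded Dkk3, unlike in the other LC tumors.

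**Figure D3:**
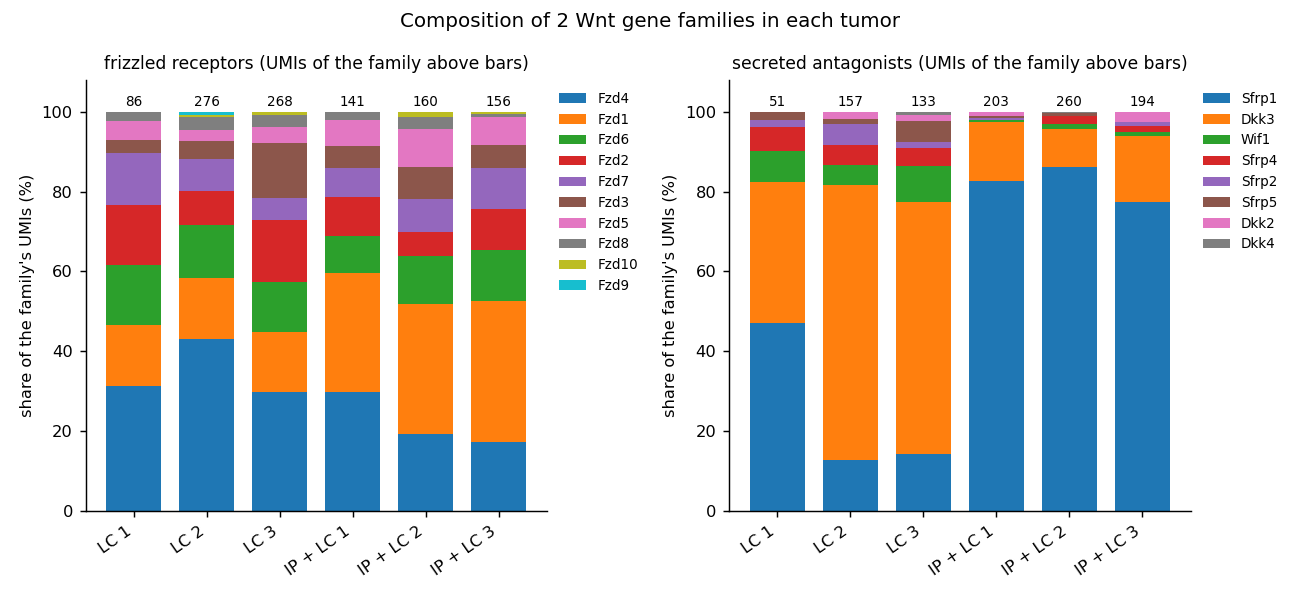
Share of each gene in the UMIs of the frizzled receptors (left) and of the secreted antagonists (right) in each tumor, in percent, with the family's UMI total above each bar. Sfrp1 filled 77.3% to 86.2% of the antagonist bars in IP + LC, against 12.7% to 47.1% in LC, and Fzd1 took about as large a share as Fzd4 or a larger one in IP + LC only.

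The R-spondins and their receptors were low in all tumors. Rspo1, a secreted protein that strengthens Wnt signaling by keeping frizzled receptors on the cell surface, was at 27.6, 17.2 and 16.1 CPM in LC and at 8.70, 4.09 and 8.71 CPM in IP + LC. The groups did not overlap, and LC replicate 1 was the highest of the tumors (log2 fold change -1.45, SE 0.39, edgeR adjusted p = 0.0241, passed the filter through LC alone). Lgr6, a receptor for R-spondins, was at 10.3, 14.1 and 10.2 CPM in LC and at 2.90, 5.25 and 2.90 CPM in IP + LC. These levels stood for 6, 18 and 12 UMIs in LC and 4, 9 and 4 UMIs in IP + LC, and after scaling the groups did not overlap (log2 fold change -1.61, SE 0.39, edgeR adjusted p = 0.0173). No IP + LC tumor reached the limit of the filter for Lgr6, so that it could only have been called lower. Lgr4 was at 9.84 ± 7.16 and 9.98 ± 3.31 CPM, with 1 UMI in LC replicate 1, and did not pass the test (log2 fold change -0.16, 95% interval -1.29 to 0.96). Lgr5, a stem cell marker in several epithelia, had 12 UMIs in LC and 3 in IP + LC. Rspo3 had 16 and 3 UMIs, Rspo2 had 11 and 5, and Rspo4 had 4 and 2.

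Axin1 and Axin2, the scaffolds of the destruction complex, changed in opposite directions. Axin1, the scaffold expressed in most cells, was at 31.0, 26.6 and 29.7 CPM in LC and at 41.3, 50.2 and 39.9 CPM in IP + LC. All IP + LC tumors were above the LC tumors by a small margin, a 1.52-fold increase (log2 fold change 0.61, SE 0.21, edgeR adjusted p = 0.0601). Axin2, whose transcription is raised by Wnt signaling and which acts back on the complex, lies at chr11:108920349-108950783 on the plus strand. It was at 12.1, 13.3 and 14.4 CPM in LC and at 7.98, 4.09 and 2.90 CPM in IP + LC, from 7, 17 and 17 and then 11, 7 and 4 UMIs. Axin2 was 2.69-fold lower without overlap of the groups (log2 fold change -1.43, SE 0.40, edgeR adjusted p = 0.0299), but it had passed the filter through LC alone. The ratio of Axin1 to Axin2 UMIs, which does not depend on scaling, was 2.57, 2 and 2.06 in LC and 5.18, 12.3 and 13.8 in IP + LC. Both calls were lost without IP + LC replicate 2, where the adjusted p-values of edgeR were 0.208 for Axin1 and 0.151 for Axin2. They were also lost without LC replicate 2, at 0.199 and 0.105. Axin1 alone was lost without LC replicate 3 (edgeR adjusted p = 0.124) and without IP + LC replicate 1 (0.116). Axin2 alone was lost without IP + LC replicate 3 (edgeR adjusted p = 0.121).

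Of the 4 transcription factors that act with β-catenin, only Tcf7l1 passed the test. Tcf7l1, a TCF factor mostly known as a repressor, was at 24.1, 34.5 and 34.7 CPM in LC and at 11.6, 16.3 and 16.7 CPM in IP + LC. The groups were well apart, with LC replicate 1 the lowest of the LC tumors (log2 fold change -1.09, SE 0.27, edgeR adjusted p = 0.0170). Tcf7, known from T cells, was at 28.6 ± 5.45 and 21.2 ± 6.24 CPM (log2 fold change -0.44, edgeR adjusted p = 0.296). The log2 fold changes of Tcf7l2 and Lef1 depended on LC replicate 1. Tcf7l2 did not pass the test with LC replicate 1 (edgeR adjusted p = 0.559) or without it (0.974). In that tumor Tcf7l2 was at 8.61 CPM, from 5 UMIs, against 76.8 and 64.4 CPM in the other LC tumors and 68.2, 61.3 and 83.5 CPM in IP + LC. Its log2 fold change of 0.42 became 0.0083 without that tumor. Lef1 was at 1.72, 21.2 and 23.7 CPM in LC and at 4.35, 9.92 and 8.71 CPM in IP + LC, and its log2 fold change of -1.15 (edgeR adjusted p = 0.168) became -1.50 (edgeR adjusted p = 0.00242) without that tumor. The ratio of Tcf7l2 to Tcf7l1 UMIs was 0.357, 2.23 and 1.85 in LC and 5.88, 3.75 and 5 in IP + LC.

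Summed by role, the R-spondins were at 25.9 to 32.2 CPM in LC and 5.84 to 11.6 CPM in IP + LC, and the frizzled receptors at 148 to 227 CPM and 93.4 to 113 CPM. The secreted antagonists were at 87.8 to 123 CPM in LC and 141 to 152 CPM in IP + LC. Coreceptors were at 20.7 to 101 CPM and 46.1 to 70.4 CPM, and transcription factors at 62.0 to 167 CPM and 98.6 to 136 CPM, with the IP + LC values inside the range of LC. Ligands, frizzled receptors and R-spondins were thus lower in every IP + LC tumor than in every LC tumor, and the antagonists, mostly Sfrp1, were higher. The 28 genes under the filter summed to 68.9 to 123 CPM in LC and 25.4 to 37.9 CPM in IP + LC. When the filter was dropped, 27 of the 28 had a value, and 4 of them, Wnt2, Wnt11, Wif1 and Rspo3, passed the test, all lower, where 16.4% of all 29423 genes passed.

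Genes around the receptors and ligands were read from a list of 98 further pathway genes found in the tables, of which 74 were tested, 13 rose and 14 fell (median log2 fold change 0.085). These calls were 36.5% of the 74, close to the 36.4% of all tested genes. Of those called, Notum, Sox17 and Tnfrsf19 had passed the filter through LC alone and fell, and Ccn4, Ctnnbip1, Fosl1, Myc and Sox9 had passed through IP + LC alone and rose. Among all tested genes 1428 passed through IP + LC alone, of which 496 rose and 10 fell. Porcn, the enzyme that attaches the lipid to Wnt proteins, was at 22.4, 33.7 and 22 CPM in LC and at 10.2, 13.4 and 15.2 CPM in IP + LC. All IP + LC tumors were below the LC tumors (log2 fold change -1.03, SE 0.30, edgeR adjusted p = 0.0320). Wls, which carries the ligands to the cell surface, was at 158 ± 14 and 132 ± 26.3 CPM and did not pass the test (log2 fold change -0.26, edgeR adjusted p = 0.399). Of 6 tested extracellular regulators none rose and Gpc3, Serpinf1 and Tinagl1 fell, apart from Notum, which is given by its counts. Notum, the enzyme that removes the lipid again, had 7, 13 and 14 UMIs in LC and 2, 3 and 2 UMIs in IP + LC, where no tumor exceeded the floor of 3 UMIs. It could only have been called lower, and at the floor its fitted fold change is not given. Scaled by depth, the summed UMIs of IP + LC were 0.140 times those of LC (exact 95% interval 0.0523 to 0.321, counting error only). Gpc3, a glypican, Serpinf1 and Tinagl1 fell by 0.99, 0.89 and 0.60 on the log2 scale, although the groups overlapped in Gpc3 and Serpinf1. With library size only none of the 3 passed the test, with adjusted p-values from edgeR of 0.114, 0.150 and 0.121. Of the other receptors and the genes that remove receptors, Ryk, Ptk7 and Znrf3 were tested and none had an adjusted p below 0.1 in edgeR, with the lowest at 0.307 for Ryk.

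Inside the cell, 22 cytoplasmic genes were tested, of which 1 rose and 2 fell (median log2 fold change 0.14). Over all tested genes 16.8% rose and 19.6% fell. Nkd1, an antagonist that binds Dishevelled and is itself known as a Wnt target, was at 94.7, 133 and 97.5 CPM in LC and at 40.6, 16.9 and 27.6 CPM in IP + LC (log2 fold change -1.95, edgeR adjusted p = 0.00331). Wtip fell by 0.85 on the log2 scale, and Csnk2a1, a catalytic subunit of casein kinase 2, rose by 0.77. The call of Wtip held under 5 and that of Csnk2a1 under 9 of the 16 alternatives given at the end. Of 16 nuclear cofactors 1 rose and 4 fell, and the largest changes were those of Sox7 and Sox17, transcription factors known from endothelium, at log2 fold changes of -1.83 and -1.68. Ctnnbip1, which keeps β-catenin from TCF factors, rose by 1.16, although its groups overlapped, and the Groucho-family corepressors Tle2 and Tle5 fell by 1.07 and 0.64 on the log2 scale. Of 11 genes of the planar cell polarity and calcium arms, Prickle2 and Prickle1 fell by 2.30 and 1.96, and Rac1 and Vangl1 rose by 0.71 and 0.70.

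Of the 14 tested genes listed as targets of β-catenin and TCF, 9 rose and 1 fell, where 16.8% of all tested genes rose and 19.6% fell, and their median log2 fold change was 1.32. The count is not independent of the filter, since 4 of the 9, Ccn4, Fosl1, Myc and Sox9, had passed it through IP + LC alone and Tnfrsf19, which fell, through LC alone. Without a filter the same 9 rose and Tnfrsf19 fell of 18 targets with a value. This tally depends on the classes used: feedback genes of the pathway were placed in other classes, where Axin2 and Nkd1 fell, Notum had 34 UMIs in LC and 7 in IP + LC, and Znrf3 did not pass the test (log2 fold change 0.066, 95% interval -0.85 to 0.98). The 9 rises became 8 with upper quartile scaling, 7 after thinning to the smallest library and 7 to 9 with 1 tumor left out, and the calls lost were those of Cd44 and Birc5. The targets under the filter had few UMIs, 12 in LC and 9 in IP + LC for Sp5, 6 and 9 for Ephb2, 4 and 5 for Fgf9 and 3 and 2 for Ascl2. Many of the listed targets are also known to respond to other growth and injury signals, and 8 of the 11 proliferation genes above rose. The part of either in the rise of the targets was not tested. Ccnd1, which encodes cyclin D1, was at 31.0, 49.4 and 38.1 CPM in LC and at 309, 302 and 253 CPM in IP + LC. Every IP + LC tumor was far above the LC tumors (log2 fold change 2.84, SE 0.24, edgeR adjusted p = 0.000565). Myc was at 8.61, 11 and 8.47 CPM in LC and at 51.5, 59.0 and 41.4 CPM in IP + LC (log2 fold change 2.41, edgeR adjusted p = 0.000945).

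Fosl1, a subunit of AP-1, had the largest log2 fold change of the list, 3.34, with 17.2, 3.13 and 2.54 CPM in LC and 68.2, 77.0 and 35.6 CPM in IP + LC. Its log2 fold change was 4.39 without LC replicate 1, the LC tumor with most Fosl1. Sox9 rose by 1.95, Ccn4 by 1.88, Vcan by 1.75, Plaur by 1.06 and Cd44 by 0.84 on the log2 scale. No LC tumor reached the limit of the filter for Sox9 or Ccn4, so that these could only have been called higher. Birc5, which encodes the mitosis protein survivin, was at 102 CPM in LC replicate 1, 18.8 and 13.6 CPM in the other LC tumors and 113 to 125 CPM in IP + LC, so that its log2 fold change was 1.58 with all tumors and 2.88 without LC replicate 1. Tnfrsf19, a target in several epithelia, fell from 25.8, 38.4 and 30.5 CPM to 5.08, 5.25 and 12.3 CPM (log2 fold change -2.10, edgeR adjusted p = 0.00470). Ephb3, Ccn5, Tcf4 and Jun had log2 fold changes of -0.95, -0.58, -0.36 and -0.36 and did not pass the test, but without LC replicate 1 all 4 passed it and were lower, which made 9 higher and 5 lower of 14, where 57.0% of all tested genes were called.

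**Figure D4:**
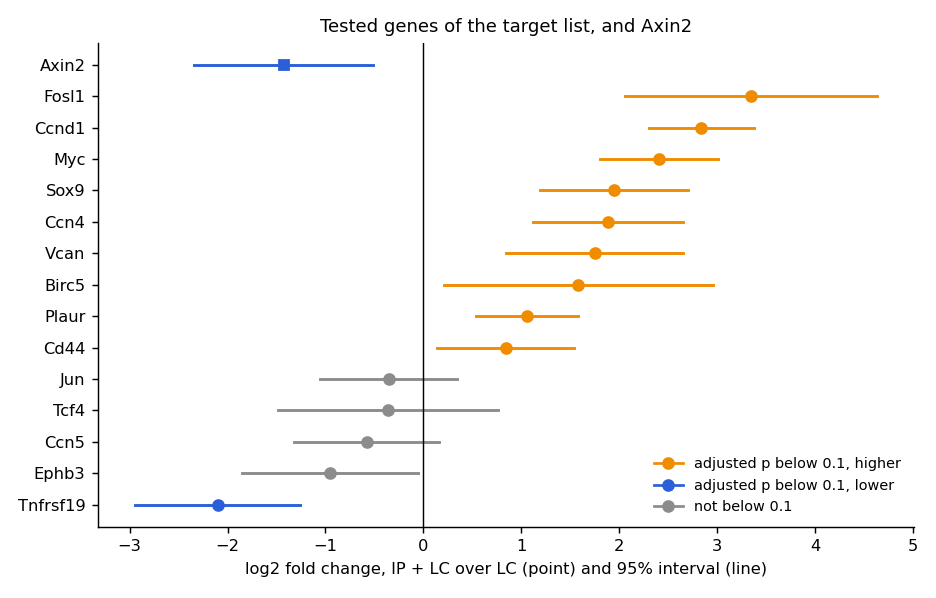
Log2 fold change of the 14 tested genes of the target list, IP + LC over LC, with 95% intervals as lines, and of Axin2 as a square. The 9 orange genes rose, with Fosl1 at 3.34 and Ccnd1 at 2.84, while Axin2 at -1.43 and Tnfrsf19 at -2.10 fell; the feedback genes Notum, Nkd1 and Znrf3 are not in the list.

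The directions of the 11 changed Wnt genes were the same under all alternatives, and the calls were not. Sfrp1, Dkk3, Fzd4, Fzd6 and Tcf7l1 passed the test under all 16 alternative scalings, filters, tests and omissions of a tumor, and Lgr6 under the 14 in which it was tested. Fzd2 passed under 15 of 16, Rspo1 under 14 of 15 and Axin2 under 12 of 15. Axin1 passed under 9 of 16 and Fzd7 under 7 of 15. Of the further pathway genes, Nkd1, Sox7, Sox17, Prickle1, Prickle2 and the targets other than Cd44 and Birc5 that changed passed under all 16. Porcn and Tle2 passed under 12 of 15 and Ctnnbip1 under 9 of 15, and Vangl1 under 12 of 16. Rac1 and Cd44 passed under 11 of 16, Gpc3 and Tle5 under 10, Tinagl1, Csnk2a1 and Birc5 under 9, Serpinf1 under 8 and Wtip under 5. When 1 tumor was left out, these 13 genes passed in 1 to 4 of 6 cases, and Csnk2a1, Wtip and Birc5 passed without LC replicate 1 alone. The log2 fold change ranged from 2.16 to 2.93 for Sfrp1, from -1.98 to -1.44 for Dkk3 and from -1.87 to -1.37 for Fzd4. In GENCODE M21, 3.15% of the exonic bases of Fzd6, 3.8% of Axin2 and 4.56% of Tcf7l1 overlapped another gene, and the use of the strand in counting is not given in the sources used here, so reads of such partners cannot be told apart there.

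**Figure D5:**
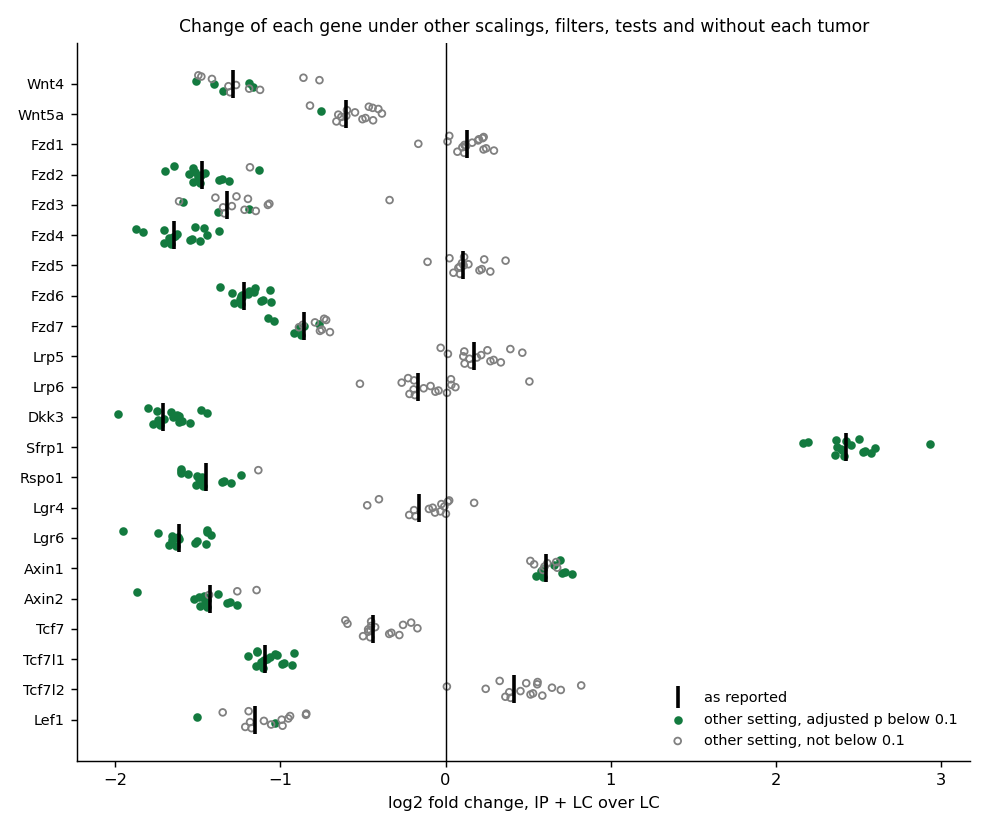
Log2 fold change of each tested Wnt gene as reported (black bar) and under each alternative (points, filled where the adjusted p was below 0.1), on 1 axis of IP + LC over LC. Sfrp1 stayed between 2.16 and 2.93 and was filled throughout, whereas the points of Lgr4 and Lrp6 lie on both sides of 0.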

How the data were processed

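Libraries had been made from 6 tumors, 3 per group, by bulk RNA barcoding and sequencing, which primes at the poly(A) tail and tags each molecule with a UMI of 10 nucleotides. The authors extracted UMIs with UMI-tools 1.1.1, trimmed with Trim Galore 0.6.7, aligned to GRCm38 with HISAT2 2.2.1, assigned reads of 81 bases with featureCounts 2.0.1 and counted every different UMI per gene. The deposited values are these UMI counts, without normalization. Which annotation release was used, and whether strand was used, is not given in the sources used here. The totals of 592733 to 1631066 UMIs per tumor set the precision. Floors and the intervals of shares and of UMI ratios cover counting error only, whereas those of log2 fold changes come from the SE of the test and include the spread between tumors.

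Genes were kept by filterByExpr (minimum count 10, minimum total 15, 3 libraries), which left 11240. Counts were scaled by TMM and compared with the quasi-likelihood test of edgeR 4.0.16 in R 4.3.3 with no block in the model; Benjamini-Hochberg adjustment ran over all tested genes, with a limit of 0.1. The SE is the log2 fold change divided by the square root of F. CPM are scaled to 1000000 UMIs in tested genes. DESeq2 1.42.0, limma 3.58.1 voom, other scalings and filters, thinning to 592733 UMIs with random seed 1, a replicate block and each tumor left out were alternatives, and TMM factors from unfiltered genes were added after seeing the data. Scripts were tested on simulated data.

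The Wnt genes, the pathway list and the marker lists were chosen with earlier results of these data known. Every Wnt gene was named. Of the further pathway genes, all targets and secretion genes and up to 4 called genes of each other class with the largest change were named (Tle5, the fifth nuclear cofactor called, was added after its value was seen), and of each marker list the most abundant gene; 1 marker list is not reported here. Coordinates came from GENCODE M21 and promoters from RefSeq on GRCm38.p6. Same-numbered tumors of the 2 groups deviated together at r = 0.0226, -0.106 and 0.0945, and differently numbered ones at -0.123 to 0.115. With 3 tumors per group these values cannot decide whether the numbers pair the tumors.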

Additional observations from a re-analysis of the deposited data

How the results depend on the processing

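Without a filter, 17 of 49 Wnt genes with a value were called, 15 of them lower, where 16.4% of all genes were called. After thinning to the smallest library, 6 of the 12 Wnt genes still tested were called (50%, the share in the reported fit), 1 higher and 5 lower, where 26.6% of all genes were called. Only 1 Wnt gene, Sfrp1, was called higher with DESeq2 (29.0% of all genes called), with the replicate block (30.3%) and at an adjusted p below 0.05 (27.3%). With 1 tumor left out, 7 to 15 Wnt genes were called, 1 to 2 of them higher; the lowest count, 7, came without IP + LC replicate 2, where Fzd2, Fzd7, Rspo1, Axin1 and Axin2 were lost and Wnt2 was gained. The causes were not tested. The 4088 calls among all genes (46.1% higher) became 2352 after thinning (1014 higher and 1338 lower) and 2265 to 6691 with 1 tumor left out (897 to 3324 higher and 1368 to 3367 lower), the highest without LC replicate 1. With library size only, 58.3% of the calls were higher and the median of all genes shifted by 0.16 on the log2 scale, and the summed Axin level then had a log2 ratio of 0.36 in place of 0.20. Of the further pathway genes, 19 rose and 9 fell with library size only, against 13 and 14 in the reported fit. Thinning gave 17 calls (8 higher and 9 lower), and leaving out 1 tumor gave 15 to 49 (7 to 20 higher and 8 to 29 lower). In the target list, 2 genes fell with upper quartile scaling and with voom, and 1 to 5 with 1 tumor left out, and the 9 that rose became 8 with upper quartile scaling, 7 after thinning and at an adjusted p below 0.05, and 7 to 9 with 1 tumor left out.

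Signs turned only in genes that had not passed the test. With 1 tumor left out, Lgr4 ranged from -0.47 to 0.17, Lrp6 from -0.52 to 0.51, Lrp5 from -0.029 to 0.46 and Fzd5 from -0.11 to 0.36 on the log2 scale. With library size only, Lgr4 was at 0.0025 and Lrp6 at 0.0091. Lrp6 was at 0.060 with voom and at 0.035 with the replicate block, and Fzd1 was at -0.16 after thinning. The tumors share only a number; with it as a replicate block, 10 Wnt genes were called, Axin1 and Fzd7 were lost and Wnt4 was gained, and 3410 of all genes were called. Depth limits the 28 Wnt genes under the filter, most of all in LC replicate 1.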
